A study of Mus musculus with 60 samples.

Results

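The choroid plexus genes described here are Ttr, Enpp2, Clic6, Kl, F5, Mfrp, Trpv4, Abca4, Prlr and Sostdc1, 10 of the 13986 genes in the deposited tables. They were chosen by symbol, and with their values in these tables known. The choice rested on group means that were high in the same groups, so every level, fold change and adjusted p of these genes is given as a description. Of the 10 genes, 9 were held in all 10 tables, and Mfrp was held in every table except whole hippocampus Handling, so 99 of 100 possible gene and table pairs had values. Over all genes, 13394 were held in all 10 tables.

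The tables come from RNA sequencing of hippocampus from C57BL/6 wild-type mice at postnatal day 105. Libraries were made from whole, dorsal or ventral hippocampus of undisturbed Homecage mice and of mice taken 45 minutes after Handling, Restraint or Swim, with 5 libraries in each of 12 groups. The study asks which genes each stress treatment moves in each part of the hippocampus. Each treatment table sets a treated group against the Homecage group of its own region, so the 3 tables of a region share their Homecage libraries, and the last table sets ventral against dorsal Homecage. All mice share the same strain and age. Nothing in the labels ties a dorsal library to a ventral library of the same mouse.

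The choroid plexus is the secretory tissue inside the brain ventricles. A single layer of epithelial cells around leaky capillaries there makes cerebrospinal fluid and separates it from blood. The hippocampus borders the lateral ventricle, and the plexus attaches along its fimbria, but hippocampal tissue itself contains no choroid plexus epithelium. Transthyretin, the product of Ttr, is the protein best known for its high production in this epithelium, where it carries thyroid hormone and, with retinol binding protein, vitamin A. In a bulk tissue sample, more cells of a type and more RNA per cell cannot be told apart.

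Promoter windows are shown because the 10 genes were high in the same groups, and because 1 of the windows is shared with a gene that was not. RefSeq windows on GRCm38.p6, which run from 250 bases before to 50 bases after a gene's start, matched 6 of the 10 genes in 8 windows: F5, Abca4, Trpv4, Kl, Mfrp and Prlr, the last with 3 windows. Ttr, Enpp2, Clic6 and Sostdc1 were not matched. Capitals mark matches on either strand to the OTX core GGATTA, to the E-box CAGGTG, to the TATA box written TATAAA or to the GC box written CCGCCC. The Mfrp window lies at chr9:44101520-44101819 on the plus strand, that of Abca4 at chr3:122044210-122044509 on the plus strand, that of Kl at chr5:150952357-150952656 on the plus strand, and that of F5 at chr1:164151585-164151884 on the plus strand.
Mfrp: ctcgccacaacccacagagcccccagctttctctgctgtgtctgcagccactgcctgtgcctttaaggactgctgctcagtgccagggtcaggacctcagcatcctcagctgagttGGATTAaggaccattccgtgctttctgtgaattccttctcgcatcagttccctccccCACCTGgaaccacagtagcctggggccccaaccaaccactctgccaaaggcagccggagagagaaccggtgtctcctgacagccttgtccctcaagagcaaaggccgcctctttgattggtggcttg
Abca4: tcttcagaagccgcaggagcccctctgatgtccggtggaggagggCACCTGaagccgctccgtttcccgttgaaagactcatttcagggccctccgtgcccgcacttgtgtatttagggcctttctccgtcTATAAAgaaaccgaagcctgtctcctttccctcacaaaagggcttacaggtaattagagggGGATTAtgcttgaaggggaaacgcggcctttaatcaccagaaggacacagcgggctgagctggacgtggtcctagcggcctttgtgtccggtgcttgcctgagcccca
Kl: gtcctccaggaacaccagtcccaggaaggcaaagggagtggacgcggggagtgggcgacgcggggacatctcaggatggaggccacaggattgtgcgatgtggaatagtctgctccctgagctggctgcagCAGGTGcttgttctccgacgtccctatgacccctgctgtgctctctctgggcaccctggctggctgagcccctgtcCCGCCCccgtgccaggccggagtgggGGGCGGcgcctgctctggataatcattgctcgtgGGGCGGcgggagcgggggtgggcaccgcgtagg
F5: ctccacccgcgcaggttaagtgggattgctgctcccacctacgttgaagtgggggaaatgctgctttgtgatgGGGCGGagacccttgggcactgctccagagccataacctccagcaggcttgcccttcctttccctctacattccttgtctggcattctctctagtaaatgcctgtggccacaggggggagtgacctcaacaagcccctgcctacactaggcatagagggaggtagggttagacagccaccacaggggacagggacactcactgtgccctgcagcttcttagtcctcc

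The OTX core holds the binding letters of homeodomain factors such as OTX2, which is needed for choroid plexus development. It was found in 2 of the 8 windows, those of Abca4 and Mfrp, against 7.06% of all 32851 windows. The E-box was found in 5 of the 8 windows, against 20.2% of all windows. These belong to 5 of the 6 matched genes, all but F5, and only 1 of the 3 Prlr windows held it. The TATA box was present in 1 of the 8 windows (Abca4), against 13.6% of all windows. The GC box was present in 3 of the 8 windows (F5, Kl and Trpv4), against 35.7% of all windows. The forkhead letters GTAAACA were found in 1 Prlr window (3.65% of all windows), and the RFX letters GTTGCC in 0 of the 8 windows (12.5% of all windows). GC content was 35.3%, 45.7% and 49.3% in the 3 Prlr windows, 56.3% for Abca4, 57.7% for F5, 58.0% for Mfrp, 67.3% for Kl and 73.0% for Trpv4, beside a mean of 53.8% over all windows. These matches are descriptions of letters and not binding sites. No motif searched was found in all 6 matched genes.

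All 10 genes were highest in the same 2 of 12 groups, dorsal hippocampus after Restraint and ventral hippocampus after Handling. Levels are given as CPM, counts scaled to a total of 1000000, here the authors' group mean of the estimated counts divided by the sum of all genes of its table. Each is a mean of 5 libraries without an SD, since only group means were used, and how evenly the 5 libraries of a group shared a mean was not tested. From the lowest to the highest group, Ttr spanned 74.8-fold, F5 25.6-fold, Mfrp 24.9-fold and Clic6 11.1-fold. Abca4, Enpp2, Sostdc1, Trpv4, Prlr and Kl spanned 6.78-fold, 5.75-fold, 5.69-fold, 5.56-fold, 4.24-fold and 3.78-fold. The gap below the top 2 groups was also wide, with the second highest group at 1168 CPM and the next at 89.5 CPM for Ttr. The second highest stood 8.22-fold above the next for Mfrp, 8.06-fold for F5 and 4.02-fold for Clic6. It was narrowest for Kl (1.86-fold) and Prlr (1.44-fold).

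**Figure D1:**
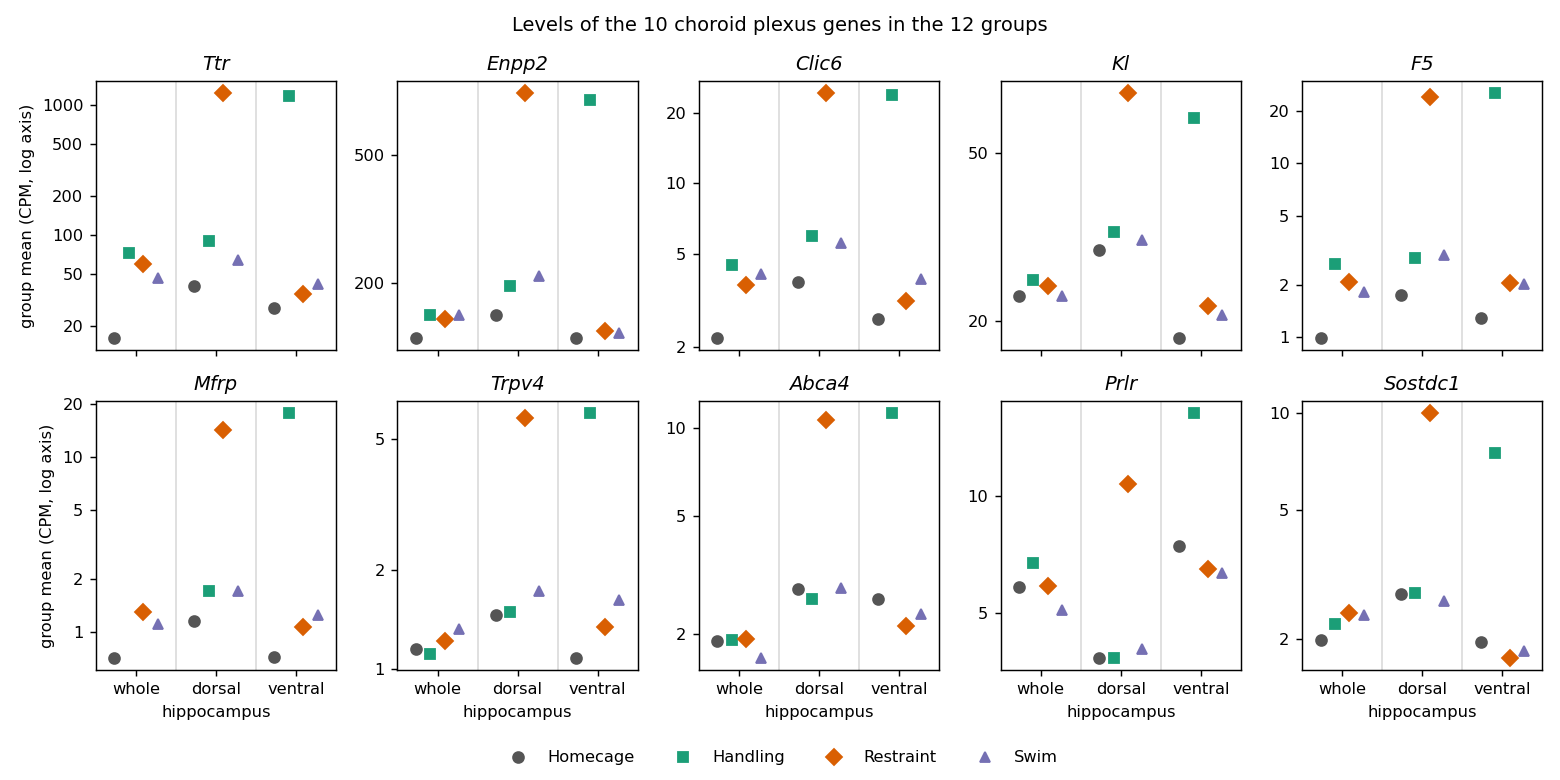
Group mean of each of the 10 genes in CPM on a log axis, by hippocampal region, with 1 symbol for each of the 4 conditions. Each point is the authors' mean of 5 libraries and has no error bar because only group means were used. Dorsal Restraint and ventral Handling stand above all other groups in every panel, at 1229 and 1168 CPM for Ttr.

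Ttr (chr18:20665280-20674321, GRCm38, plus strand) was at 16.4 CPM in whole Homecage, 72.6 CPM in whole Handling, 60.3 CPM in whole Restraint and 46.9 CPM in whole Swim. In dorsal hippocampus it was at 40.5 CPM in Homecage, 89.5 CPM after Handling, 1229 CPM after Restraint and 64.2 CPM after Swim. In ventral hippocampus it was at 27.6 CPM in Homecage, 1168 CPM after Handling, 35.3 CPM after Restraint and 42.1 CPM after Swim. In each region, Homecage was the lowest of the 4 groups. The high group was the Restraint group in dorsal tissue and the Handling group in ventral tissue, so neither treatment was high in both parts. In the authors' deposited table, the log2 fold change of Ttr was 4.94 ± 0.97 in dorsal Restraint (adjusted p = 2.3e-04) and 5.39 ± 0.81 in ventral Handling (adjusted p = 4.6e-08). The error is an implied standard error, the deposited log2 fold change divided by the normal quantile of its deposited p-value, and is approximate. Ttr ranked 1 by fold change among 13633 genes in dorsal Restraint and 2 among 13784 genes in ventral Handling.

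Enpp2 (chr15:54838901-54952892, minus strand) encodes autotaxin, a secreted enzyme that makes lysophosphatidic acid and is also made by oligodendrocytes. It was at 135, 159, 154 and 159 CPM in whole Homecage, Handling, Restraint and Swim. In dorsal hippocampus the same order gave 159, 195, 776 and 210 CPM, and in ventral hippocampus 135, 738, 141 and 139 CPM. Its low groups lay within 1.55-fold of each other, from 135 to 210 CPM, a base far above that of the other genes, and the high groups stood 3.52-fold or more above them. In the authors' deposited table, Enpp2 was higher by 2.31 ± 0.59 on the log2 scale in dorsal Restraint (adjusted p = 0.0239) and by 2.46 ± 0.45 in ventral Handling (adjusted p = 2.6e-05).

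F5 and Mfrp followed Ttr in the size of their change. F5 (chr1:164151838-164220277, plus strand), coagulation factor V, is known mainly as a liver and platelet product. Its levels in Homecage, Handling, Restraint and Swim were 0.992, 2.62, 2.07 and 1.82 CPM in whole, 1.75, 2.84, 24.0 and 2.98 CPM in dorsal and 1.29, 25.3, 2.04 and 2.02 CPM in ventral hippocampus. In each region the Homecage group was the lowest. The authors' deposited table gave F5 a log2 fold change of 3.80 ± 0.93 in dorsal Restraint (adjusted p = 0.0147) and of 4.30 ± 0.65 in ventral Handling (adjusted p = 4.6e-08). F5 was also the 1 gene of the 10 that was called in ventral Restraint, at 0.68 ± 0.20 on the log2 scale in the authors' deposited table (adjusted p = 0.0376).

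Mfrp (chr9:44101729-44109187, plus strand) encodes a membrane frizzled-related protein known from the retinal pigment epithelium and eye growth. It was at 0.716, 1.31 and 1.12 CPM in whole Homecage, Restraint and Swim. In Homecage, Handling, Restraint and Swim it was at 1.16, 1.73, 14.3 and 1.73 CPM in dorsal and at 0.723, 17.8, 1.07 and 1.25 CPM in ventral hippocampus. The 2 high groups stood apart from the rest, which did not pass 1.73 CPM. The authors' deposited table gave 3.65 ± 0.83 on the log2 scale in dorsal Restraint (adjusted p = 0.00461) and 4.60 ± 0.72 in ventral Handling (adjusted p = 1.4e-07). The locus of C1qtnf5 (chr9:44107245-44109187, plus strand) lies inside that of Mfrp, and both share the RefSeq window printed above, so reads from the common stretch could be given to either gene and the values of both are uncertain. C1qtnf5 ran from 4.40 to 6.00 CPM over the 12 groups, a 1.36-fold span. The authors' deposited table gave C1qtnf5 a log2 fold change of -0.04 ± 0.19 in dorsal Restraint and -0.29 ± 0.27 in ventral Handling, where Mfrp was at its highest.

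Clic6 (chr16:92485736-92541243, plus strand), a chloride intracellular channel protein, was at 2.19, 4.48, 3.67 and 4.11 CPM in whole Homecage, Handling, Restraint and Swim. In dorsal hippocampus the same order gave 3.79, 5.93, 24.2 and 5.57 CPM, and in ventral hippocampus 2.63, 23.8, 3.13 and 3.91 CPM. The 2 high groups differed by 1.02-fold. The authors' deposited table gave Clic6 a log2 fold change of 3.16 ± 0.59 in ventral Handling (adjusted p = 3.4e-05) and of 2.68 ± 0.78 in dorsal Restraint, where the adjusted p was 0.0784.

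Kl (chr5:150952607-150993817, plus strand) encodes klotho, a co-receptor for the hormone FGF23 that is also abundant in kidney. It was at 22.9, 25.0, 24.3 and 23.0 CPM in whole Homecage, Handling, Restraint and Swim, at 29.5, 32.6, 69.4 and 31.2 CPM in dorsal and at 18.3, 60.7, 21.7 and 20.7 CPM in ventral hippocampus. Kl had the smallest span of the 10 genes and a base level in every group. The authors' deposited table gave Kl 1.26 ± 0.40 on the log2 scale in dorsal Restraint (adjusted p = 0.135) and 1.72 ± 0.32 in ventral Handling (adjusted p = 4.0e-05).

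Prlr (chr15:10177238-10349180, plus strand), the prolactin receptor, binds the pituitary hormone prolactin. It was at 5.82, 6.74, 5.88 and 5.08 CPM in whole Homecage, Handling, Restraint and Swim, at 3.84, 3.84, 10.7 and 4.04 CPM in dorsal and at 7.43, 16.3, 6.49 and 6.33 CPM in ventral hippocampus. Prlr was the 1 gene of the 10 whose Homecage level was higher in ventral than in dorsal tissue, and its dorsal Restraint level was 0.655 times its ventral Handling level. The authors' deposited table gave Prlr a log2 fold change of 1.13 ± 0.30 in ventral Handling (adjusted p = 0.0207) and of 1.51 ± 0.51 in dorsal Restraint (adjusted p = 0.181).

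Trpv4, Abca4 and Sostdc1 had low base levels. Trpv4 (chr5:114622152-114658421, minus strand), a cation channel opened by osmotic and mechanical stimuli, stayed between 1.08 and 1.73 CPM except at 5.82 CPM in dorsal Restraint and 6.01 CPM in ventral Handling. Abca4 (chr3:122044443-122180123, plus strand), a retinoid transporter known from photoreceptors, lay between 1.66 and 2.85 CPM except at 10.6 and 11.2 CPM in the same 2 groups. Sostdc1 (chr12:36314139-36318452, plus strand), a secreted antagonist of BMP and WNT signalling, lay between 1.75 and 2.78 CPM except at 9.97 and 7.51 CPM. For none of the 3 genes did the levels of the 2 high groups reach into the range of the other 10. In ventral Handling the authors' deposited table gave 2.46 ± 0.43 on the log2 scale for Trpv4 (adjusted p = 8.1e-06), 2.10 ± 0.43 for Abca4 (adjusted p = 3.7e-04) and 1.95 ± 0.45 for Sostdc1 (adjusted p = 0.00438). In dorsal Restraint the authors' deposited table gave 1.99 ± 0.62 for Trpv4, 1.94 ± 0.65 for Abca4 and 1.88 ± 0.60 for Sostdc1, with adjusted p of 0.117, 0.166 and 0.132.

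A gene is called here where the authors' adjusted p is under 0.05. In ventral Handling, 10 of 10 genes were called higher, where 0.813% of all genes were called higher and 0.0435% lower. In dorsal Restraint, 4 of 10 were called higher (Ttr, Enpp2, F5 and Mfrp), where 0.381% of all genes were called higher and 0.235% lower. These contrasts served in choosing the genes, so the shares are printed as background only. The median log2 fold change of the 10 genes was 2.15 in dorsal Restraint and 2.46 in ventral Handling, beside medians over all genes of 0.01 and 0.00. All 10 genes had an unadjusted deposited p under 0.05 in both tables, against 9.60% of all genes in dorsal Restraint and 7.28% in ventral Handling.

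The implied errors were also larger in these 2 tables. The median implied standard error of the 10 genes was 0.64 in dorsal Restraint (0.40 to 0.97) and 0.45 in ventral Handling (0.30 to 0.81), and lay between 0.21 and 0.24 in every other table. Over all genes the median implied error ran from 0.07 to 0.10 in the 10 tables. The implied errors of these genes were thus large where their means were high, and the part of single libraries in those means was not tested.

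Outside these 2 tables the changes were smaller and mostly above 0. In whole hippocampus, 1 of 9 genes was called higher after Handling (Ttr; background 0.366% higher and 0.0293% lower), 1 of 10 after Restraint (Ttr; background 0.504% and 0.0365%) and 0 of 10 after Swim (background 0.336% and 0.0585%). In the authors' deposited table, Ttr was at 2.20 ± 0.55 on the log2 scale in whole Handling (adjusted p = 0.0277), at 1.86 ± 0.45 in whole Restraint (adjusted p = 0.00737) and at 1.45 ± 0.44 in whole Swim (adjusted p = 0.206). The 3 values rest on the same Homecage libraries, in which Ttr had its lowest level of all groups. F5 in whole hippocampus was at 1.45 ± 0.44 after Handling, 1.07 ± 0.33 after Restraint and 0.86 ± 0.29 after Swim in the authors' deposited table, with adjusted p of 0.180, 0.187 and 0.399. Clic6 followed at 1.04 ± 0.34, 0.76 ± 0.35 and 0.87 ± 0.37 in the authors' deposited table, none of them called. The median of the held genes was 0.22, 0.24 and 0.24 in the 3 whole tables.

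In dorsal hippocampus, 0 of 10 genes were called after Handling (background 0.118% higher and 0.00735% lower) and 0 of 10 after Swim (background 0.359% and 0.0879%). By unadjusted p under 0.05 the authors' tables held 2 of 10 in dorsal Handling and 2 of 10 in dorsal Swim, against 2.84% and 11.2% of all genes. In whole hippocampus they held 3 of 9 after Handling, 4 of 10 after Restraint and 5 of 10 after Swim, against 5.06%, 3.92% and 5.20% of all genes. Enpp2 came closest in dorsal Swim, at 0.40 ± 0.11 on the log2 scale in the authors' deposited table (adjusted p = 0.0826). In ventral hippocampus, 1 of 10 was called higher after Restraint (F5; background 1.48% higher and 0.916% lower) and 0 of 10 after Swim, where 4.65% of all genes were called higher and 2.29% lower. By unadjusted p under 0.05, 4 of 10 passed in ventral Restraint and 3 of 10 in ventral Swim, against 12.7% and 24.0% of all genes. The count of 0 in ventral Swim lies near these background shares.

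**Figure D2:**
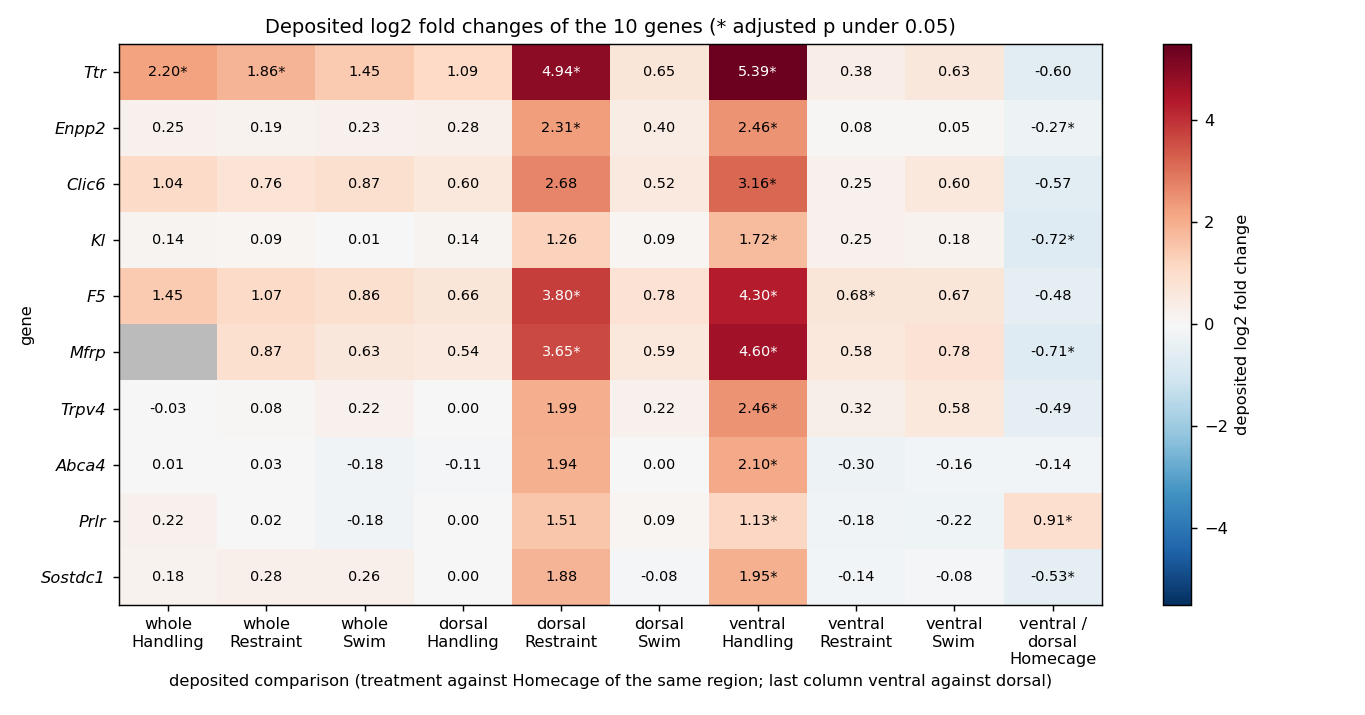
Deposited log2 fold change of each of the 10 genes (rows) in each of the 10 tables (columns), with red for higher and blue for lower than the reference group; an asterisk marks an adjusted p under 0.05 and the grey cell is Mfrp in whole Handling, which held no value. The dorsal Restraint and ventral Handling columns run from 1.13 to 5.39, and Ttr leads both.

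In undisturbed mice, more of these genes were lower than higher in ventral hippocampus. In the authors' deposited table, 4 of 10 genes were called lower in ventral than in dorsal Homecage (Enpp2, Kl, Mfrp and Sostdc1) and 1 higher (Prlr), where 20.0% of all genes were called lower and 18.4% higher. Kl was lower in ventral tissue at -0.72 ± 0.09 on the log2 scale in the authors' deposited table (adjusted p = 1.6e-15), with 18.3 CPM against 29.5 CPM. Prlr was higher at 0.91 ± 0.14 in the authors' deposited table (adjusted p = 9.5e-10), with 7.43 CPM against 3.84 CPM. Enpp2 at -0.27 ± 0.09 (adjusted p = 0.00637), Sostdc1 at -0.53 ± 0.18 (adjusted p = 0.0109) and Mfrp at -0.71 ± 0.30 (adjusted p = 0.0436) were lower in the authors' deposited table. With the trend on GC content subtracted, Mfrp was at -0.54 and no longer called. Ttr was at -0.60 ± 0.52 in the authors' deposited table and was not called (adjusted p = 0.378).

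Per kilobase of exon, on the scale of CPM per kb, Ttr led in dorsal Restraint at 1037, followed by Enpp2 at 134, Kl at 7.44, Clic6 at 6.19, Sostdc1 at 5.60, Mfrp at 3.29, F5 at 3.23, Trpv4 at 1.43, Abca4 at 0.883 and Prlr at 0.696. The first places changed between groups. In whole Homecage, Enpp2 stood at 23.4 CPM per kb above Ttr at 13.9, in ventral Homecage they stood at 23.4 and 23.3, and in dorsal Homecage Ttr stood at 34.2 above Enpp2 at 27.5. Ttr therefore passed from a level like that of Enpp2 to one several times higher.

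The gains in CPM kept nearly the same proportions in both high groups. This reading was chosen after the values were seen. Ttr gained 1189 CPM over Homecage in dorsal Restraint and 1140 CPM in ventral Handling. Per 1000 CPM of that gain, Enpp2 gained 520 CPM in dorsal Restraint and 529 CPM in ventral Handling. Kl gained 33.5 and 37.1 CPM, F5 18.7 and 21.1 CPM, and Clic6 17.2 and 18.6 CPM on the same basis. Mfrp gained 11.0 and 15.0 CPM, Abca4 6.55 and 7.55 CPM, Prlr 5.75 and 7.77 CPM, Sostdc1 6.07 and 4.87 CPM, and Trpv4 3.66 and 4.32 CPM. The ventral share over the dorsal share ran from 0.802 for Sostdc1 to 1.36 for Mfrp. The dorsal Restraint and ventral Handling groups hold no library in common by their labels, and no error can be put on these shares.

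**Figure D3:**
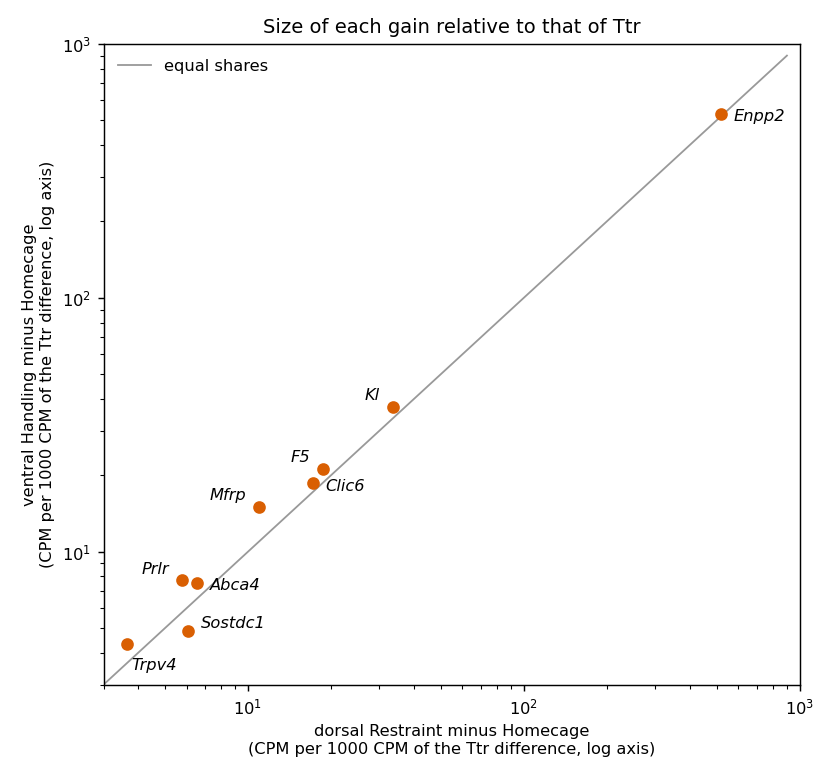
CPM gained over Homecage per 1000 CPM gained by Ttr, in dorsal Restraint (horizontal, log axis) and ventral Handling (vertical, log axis), with 1 point for each of the other 9 genes and a line of equal shares. The points lie along the line from Trpv4 at 3.66 and 4.32 to Enpp2 at 520 and 529.

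Relative to the level of Ttr, in contrast, the genes differed between the high groups and Homecage. Enpp2 stood at 3915 CPM per 1000 CPM of Ttr in dorsal Homecage and at 4903 in ventral Homecage, against 632 in each high group. Kl stood at 728 and 665 per 1000 in dorsal and ventral Homecage, at 56.4 in dorsal Restraint and at 52.0 in ventral Handling. Clic6 stood at 93.6 and 95.4 in Homecage and at 19.7 and 20.4 in the high groups, and F5 at 43.1 and 46.7 against 19.5 and 21.7. Over all groups, the log2 ratio to Ttr ranged least for F5 (1.63) and Mfrp (1.91), followed by Clic6 (2.75). It ranged most for Kl (4.75) and Prlr (5.35).

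**Figure D4:**
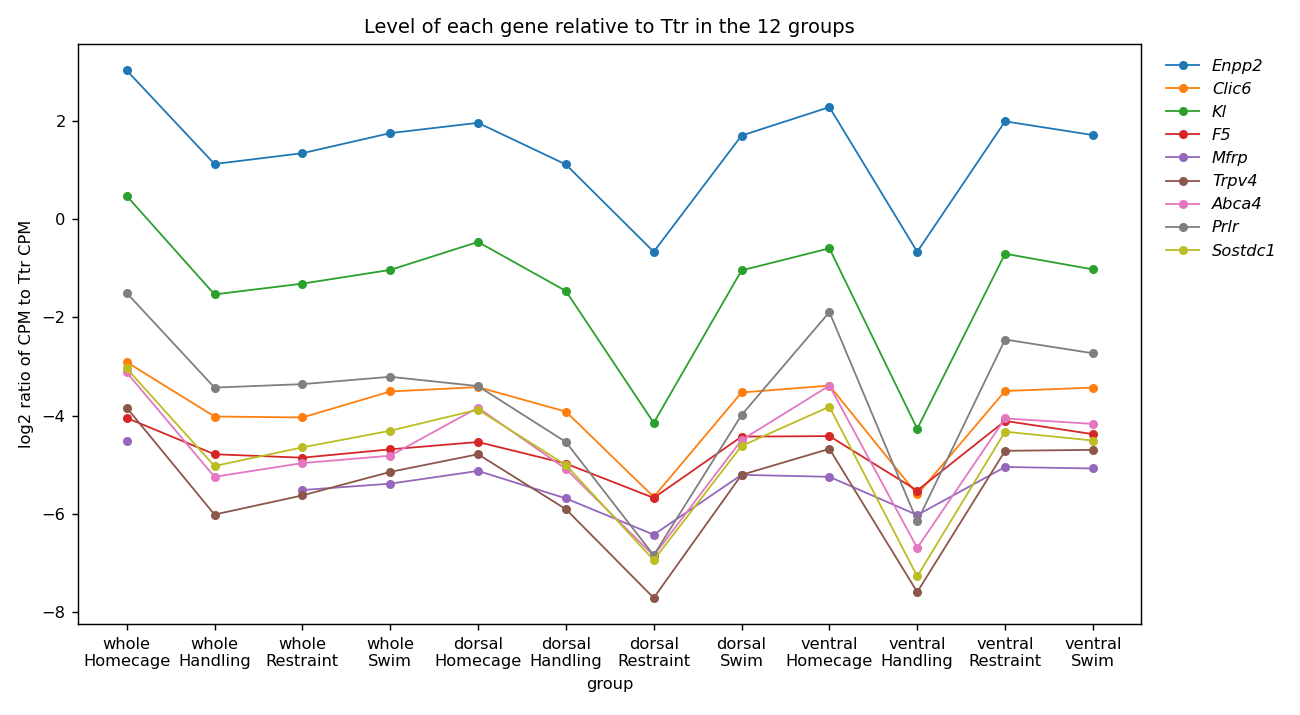
Log2 ratio of each gene's CPM to that of Ttr in the 12 groups, with 1 line for each gene; Mfrp has no value in whole Handling. All 9 lines are lowest in dorsal Restraint or ventral Handling, and the range over the groups runs from 1.63 log2 units for F5 to 5.35 for Prlr.

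Over the 12 groups, likeness to Ttr was measured as Pearson's r of log2(CPM + 0.5) among 13393 other genes held in all tables, and serves as a description. The 12 points are group means scaled to 1 total. Clic6 reached 0.992, F5 0.991, Enpp2 0.976, Sostdc1 0.958, Trpv4 0.950, Kl 0.945, Abca4 0.927 and Prlr 0.710, which ranked 117. The 10 other genes most like Ttr were 1500015O10Rik (0.984), Calml4 (0.970), Slc37a2 (0.969), Rdh5 (0.965), Lbp (0.962), Slc2a12 (0.949), Tcn2 (0.949), Glmp (0.924), Pon3 (0.923) and Msx1 (0.923). Of these, 5 are on a separate list of 40 choroid plexus epithelium genes described next. Lbp, the lipopolysaccharide binding protein, went from 2.81 to 8.52 CPM in dorsal Restraint and from 2.64 to 9.04 CPM in ventral Handling. Glmp, a lysosomal membrane protein, differed far less in size, from 31.5 to 34.1 CPM and from 31.3 to 34.5 CPM, so a high r did not mean a large change.

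The separate list of other choroid plexus epithelium genes, also chosen with results of these data known, had its highest median log2 fold changes in the same 2 groups. Of its 40 genes, 35 were matched by symbol in some table and 20 in all. Drc7, listed under its former symbol Ccdc135, was not matched and is left out of these counts. Among the 20, 2 were called higher in dorsal Restraint (1500015O10Rik and Sulf1, an extracellular sulfatase) and 10 in ventral Handling, with medians of 0.91 and 0.65 on the log2 scale. Over all genes, 0.381% and 0.813% were called higher in these tables. In ventral Restraint, 2 of the 20 were called higher (Car12 and Slc29a4) and 3 lower (Cldn1, Perp and Slc13a4), beside 1.48% and 0.916% of all genes. In ventral Swim 1 was called higher (Car12) and 1 lower (Cldn1), in whole Restraint 1 was called higher (1500015O10Rik), and none was called in the other 4 treatment tables. A further 15 genes were held in some tables only. Dorsal Restraint held 24 genes of the list and ventral Handling 35, so not all of them can be compared between these 2 groups. A gene held in ventral Handling alone entered that table through its high level there. Such genes were Slc4a5, a bicarbonate cotransporter, at 0.288 CPM in ventral Homecage and 10.2 CPM after Handling, and Kcne2, a potassium channel subunit, at 0.208 and 6.44 CPM. The authors' deposited table gave them log2 fold changes of 5.12 ± 0.81 (adjusted p = 3.0e-07) and 4.94 ± 0.80 (adjusted p = 5.9e-07). The potassium channel gene Kcnj13 went from 0.672 to 9.28 CPM and the folate receptor gene Folr1 from 0.840 to 9.48 CPM in ventral Handling, with adjusted p of 1.5e-05 and 1.1e-04 in the authors' deposited table. Folr1 was also called higher in whole Restraint.

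Genes past 1 log2 unit in both tables were counted after the values were seen and without regard to the adjusted p. Of 13523 genes held in both, 46 were higher by at least 1 in dorsal Restraint and 39 in ventral Handling, and 28 in both, which is 60.9% of the former and 71.8% of the latter. The 28 genes were the 10 choroid plexus genes, 11 matched by symbol to the separate list and 7 others. The 10 were chosen as high in these groups, so their place among the 28 was fixed by that choice. Some of the 11, such as Aqp1, were not held in all tables and could enter through their high level in these groups. The 7 others were Fos, Fosb and Egr2, which are immediate early genes, together with Lbp, Pon3, Sema3b and Drc7. The separate list holds Drc7 under its former symbol Ccdc135, so Drc7 belongs to that list although it was not matched. In the authors' deposited table, Fos was at 1.35 in dorsal Restraint and 2.02 in ventral Handling. The count of genes lower by at least 1 in both was 1. By the authors' adjusted p, 52 genes were called higher in dorsal Restraint, 112 in ventral Handling and 29 in both. The 29 are 55.8% and 25.9% of the genes called higher in the 2 tables. Of the 29, 4 were of the 10 choroid plexus genes and 5 of the separate list, so most were on neither.

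The summed CPM of the 20 choroid plexus genes of the separate list that all tables held ran from 260 CPM in whole Homecage to 487 CPM in ventral Handling. Its log2 change over the Homecage of the region was 0.65 in dorsal Restraint and 0.69 in ventral Handling, and 0.01 to 0.12 in the other 7 treated groups. Ependymal cells are the ciliated lining of the ventricle, and 12 of their marker genes summed to 79.3 to 103 CPM, with changes of 0.14 in dorsal Restraint and 0.20 in ventral Handling. The median log2 fold change of the 12 was 0.32 and 0.15 in these 2 tables, beside 0.01 and 0.00 over all genes. By the authors' adjusted p, 0 ependymal genes were called in any treatment table. By unadjusted p under 0.05 there were 3 of 13 in dorsal Restraint and 3 of 14 in ventral Handling, against 9.60% and 7.28% of all genes. In the other treatment tables there were 0 to 4. The 12 meningeal fibroblast genes summed to 57.0 to 161 CPM and changed by -0.11 and -0.24 in the 2 groups. The 12 endothelial genes (266 to 314 CPM) changed by -0.02 and -0.01, and the 5 blood cell genes held (156 to 381 CPM) by -0.09 and -0.40. The 10 hippocampal neuron genes (6107 to 8457 CPM) changed by -0.02 and 0.05, and the 10 thalamus and habenula genes (166 to 235 CPM) by 0.04 and -0.12. Oligodendrocyte, astrocyte and microglia lists changed by 0.12 or less in size in both groups. Of these 9 lists without the choroid plexus, 1 gene was called in the 2 high tables, the astrocyte gene Sox9. It was at -0.43 ± 0.12 in dorsal Restraint in the authors' deposited table (adjusted p = 0.0482). Over all genes, 0.381% were called higher and 0.235% lower in dorsal Restraint, and 0.813% and 0.0435% in ventral Handling. So few calls lie near these shares. By unadjusted p under 0.05, 4 of 12 meningeal fibroblast genes passed in ventral Handling (7.28% of all genes) and 0 of 12 in dorsal Restraint. Of the astrocyte genes, 3 of 10 passed in dorsal Restraint (9.60% of all genes) and 0 of 10 in ventral Handling. The remaining lists had 0 to 2 in each of the 2 tables. No gene of any list was listed at 0 in a table that held it, and the part of choroid plexus tissue in the result was not tested.

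**Figure D5:**
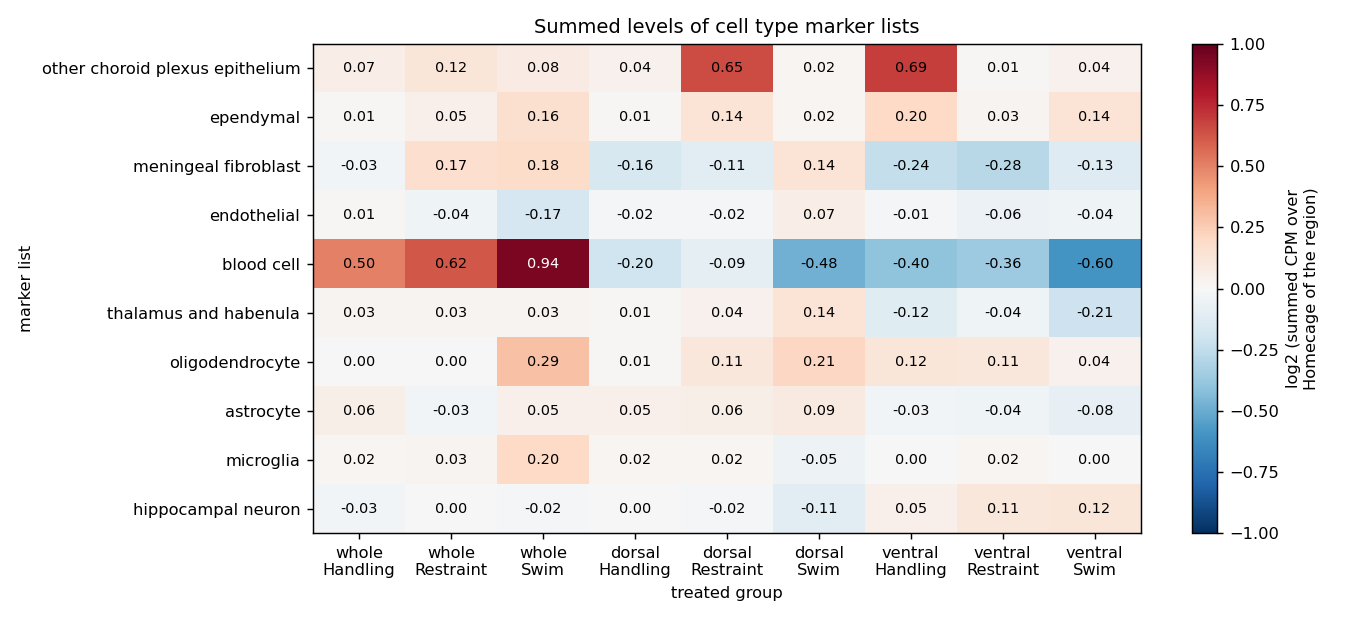
Log2 change of the summed CPM of 10 marker lists (rows) in the 9 treated groups (columns) over the Homecage group of the same region, red for higher and blue for lower. The choroid plexus list stands at 0.65 in dorsal Restraint and 0.69 in ventral Handling, and the blood cell list varies in other groups, up to 0.94 in whole Swim.

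Genes that work with the 10 were read from lists chosen in the same way. Of 22 genes of ion, water and bicarbonate transport held in all tables, 0 were called in dorsal Restraint and 2 were called higher in ventral Handling (Car12 and Slc4a2), which is 9.09% beside 0.813% of all genes. Car12 was also called higher in ventral Restraint and ventral Swim. Aqp1, called in both high tables, and Kcne2, Kcnj13 and Slc4a5, called in ventral Handling, were not held in all tables. Car12, Aqp1, Kcne2, Kcnj13 and Slc4a5 are also on the separate choroid plexus list, so the same genes are counted in both lists. Aqp1 was held in the 2 high tables only and entered them through its high level there, so its values are given as a description. This water channel gene went from 0.565 to 6.02 CPM in dorsal Restraint and from 0.496 to 6.59 CPM in ventral Handling, at 3.45 ± 0.81 (adjusted p = 0.00721) and 3.70 ± 0.63 (adjusted p = 3.1e-06) on the log2 scale in the authors' deposited table. Of 13 thyroid hormone and retinoid handling genes held in all tables, 1 was called higher in dorsal Restraint (the deiodinase gene Dio2) and 1 in ventral Handling, which is 7.69% beside 0.381% and 0.813% of all genes. The latter was the retinol dehydrogenase gene Rdh5, at 1.36 ± 0.32 in the authors' deposited table (adjusted p = 0.00585). Rdh5 is also on the separate choroid plexus list. Dio2 was not particular to a high group. It was also called higher in whole Handling, Restraint and Swim, in dorsal Swim, and in ventral Restraint and Swim, and was not called in ventral Handling. The medians of the genes held in all tables were 0.09 and 0.03 for transport, and 0.12 and 0.03 for thyroid hormone and retinoid handling, beside 0.01 and 0.00 over all genes.

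In 6 further lists, 0 genes were called in either high table by the authors' adjusted p. This lies near the 0.381% and 0.813% of all genes called higher in dorsal Restraint and ventral Handling. At an unadjusted p under 0.05, 4 of 23 BMP and WNT genes passed in dorsal Restraint and 3 of 24 in ventral Handling, against 9.60% and 7.28% of all genes. Each other list of the 6 had 0 or 1 such gene in each table. The 6 lists were 11 genes of lysophosphatidic acid signalling, where the receptor gene Lpar1 stood at 21.7 and 24.1 CPM in dorsal Homecage and Restraint. They also took in the 3 FGF receptor genes held, 9 coagulation genes, 9 and 10 genes of prolactin and JAK-STAT signalling, 23 and 24 genes of BMP and WNT signalling and 9 other ABCA transporter genes. Fgfr1 stood at 140 and 151 CPM in ventral Homecage and Handling. Among 11 frizzled-domain genes and MFRP partners, 1 was called lower in dorsal Restraint, C1qtnf4, at -1.13 ± 0.29 in the authors' deposited table (adjusted p = 0.0239), and 0 in ventral Handling.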

How the data were processed

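RNA sequencing of 60 hippocampal libraries, 5 in each of 12 groups, was used as 10 tables in which the authors compared 2 groups. The authors' group means of estimated counts, named as means in the file headers, summed to 19.9M to 25.0M a group (M, mega). The authors' fold is a linear ratio of the scaled groups, which the log2 column repeats on a log scale, per the file headers. Which test of the authors gave the deposited p-value is not given in the sources used here, and the same holds for the aligner and counting program. Bowtie 0.12.2 and mm8 appear, without a role, in the submitters' processing notes. The smallest sum of both means in any table was 22.0. The authors' rule for holding a gene is not given in the sources used here, and a gene can pass through 1 high group. Without values of single libraries, the planned calls by the authors' adjusted p (0.05) were used, and no SD or test of libraries was made. Whether libraries came from separate mice is stated for the series as a whole (5 mice a condition).

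Repeated gene IDs (144 to 148 a table) were dropped, leaving 13610 to 13784 genes. CPM is the group mean over the sum of its table column, averaged over the tables that hold the group. Implied errors come from the normal quantile of the deposited p-value. The formula was checked on simulated p-values made from the same normal quantile, which checks the calculation only. Whether the authors' test follows that quantile was not tested. Exon lengths and GC content were read from GENCODE M21 (GRCm38). GC trends were lowess fits (fraction 0.3). Genes named were the 10 genes, the 10 others most like Ttr, up to 4 genes a list by range of log2(CPM + 0.5), and C1qtnf5. Aqp1, Sulf1, Sox9, Car12, Slc4a2, Slc29a4, Cldn1, Perp, Slc13a4, Dio2, C1qtnf4, Fos, Fosb, Egr2, Drc7 and Sema3b were named as members of small counts after their values were seen or by the same rule. The genes and lists were chosen with earlier results of these data known. Software was Python 3.11.15, numpy 2.4.6, pandas 2.3.3, scipy 1.17.1, statsmodels 0.14.6 and matplotlib 3.10.9. Alternatives were other thresholds, scalings, pseudocounts and gene filters, a GC correction and another denominator for the ratios.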

Additional observations from a re-analysis of the deposited data

How the results depend on the processing

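Of 437 alternative values, 89 values that answer a comparison and 327 of single genes were labelled the same. A count of called genes was the same if equal or within 1.5 times. Medians, ranges and ratios were the same within 1 median implied standard error. A fold change of 1 gene was the same if it kept its side of the threshold and, where called, its sign. Genes not called could change sign, as Trpv4 did in whole Handling (-0.03 against 0.02 with the GC trend subtracted). With total-count scaling the authors' adjusted p of single genes was kept, so their side could not change. The number of the 10 genes called depended on the authors' adjusted p. At an adjusted p of 0.01, 0 genes were called in whole Handling, 2 in dorsal Restraint, 0 in ventral Restraint and 3 between ventral and dorsal Homecage, and 1 gene of the separate choroid plexus list was called higher in dorsal Restraint. At 0.1, 1 gene was called in dorsal Swim, 2 in ventral Restraint and 1 in ventral Swim. In ventral Handling, 9 and 10 genes were called at these thresholds. The share of all genes called at 0.01 and 0.1 was not counted. The median log2 range of the 10 genes over groups was 2.48 with a pseudocount of 0.5 and 2.18 with 2. The median range of the ratio was 3.73 with Ttr and 1.44 with the median of the other genes as denominator. With the GC trend subtracted, Mfrp stood at -0.54 between ventral and dorsal Homecage and was no longer called. The range over groups moved with the pseudocount for Clic6, F5, Mfrp, Trpv4, Abca4, Prlr and Sostdc1, and not for Ttr, Enpp2 and Kl. Every gene of the separate list that a table held under its listed symbol was also counted, including those that entered through a high group. Of these, 5 of 24 were called higher in dorsal Restraint and 24 of 35 in ventral Handling, beside 0.381% and 0.813% of all genes. In whole Restraint 2 of 25 were called higher (0.504% of all genes). In ventral Restraint 2 of 21 were called higher and 3 lower (1.48% and 0.916%), and in ventral Swim 1 of 21 higher and 1 lower (4.65% and 2.29%).

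No paired analysis was possible because the tables give group means and carry no library numbers. Leaving out each replicate could not be run for the same reason, so it was not tested whether single libraries carry the high means. Genes that a table did not hold could not be followed there, and the errors are approximate.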
